A study of Rattus norvegicus with 6 samples.

Results

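Complement is a set of plasma and tissue proteins that mark microbes and dead cells for clearance. C1q and the lectins recognise a surface, the proteases C1r, C1s and the MASPs cut C4 and C2, and the resulting convertase cuts C3, while factors B, D and properdin form the loop that amplifies this step. The cut products C3a and C5a signal through receptors on leukocytes, C5 to C9 assemble the membrane attack complex, and a set of inhibitors protects the host's own cells. The liver makes most plasma complement, whereas macrophages are the main source of C1q, and fibroblasts and adipocytes make further components in skin. The genes described here are 36 complement components, receptors and regulators chosen by gene symbol, of which 33 had a row in the table of 18825 genes. Mbl2, C8a and C8b were not analysed here.

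Messenger RNA was sequenced from dorsal wounds through the full thickness of the skin of male Sprague–Dawley rats, all made diabetic by a diet rich in fat and sucrose and by streptozotocin, which kills the beta cells of the pancreas. The 3 DST-MNs libraries came from diabetic wounds treated with microneedles loaded with spheroids of dental pulp stem cells, themselves regulated by the polyamine spermidine and the growth factor TGF-β3. The 3 control libraries came from diabetic wounds left untreated. The sources used here give no day of collection, age of the rats or species of the stem cells. With an untreated control the effects of the needles, the cells and the 2 agents cannot be told apart. Libraries of 1 group are biological replicates by their labels.

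Library totals ran from 12545206 to 13818548 estimated counts. Of 14427 genes tested, 95 were higher and 17 lower in the treated wounds at an adjusted p below 0.05, taken here and below from the quasi-likelihood test of edgeR. Fibroblast genes were abundant in all libraries, with Col1a1 at 6116 to 9627 TPM, a level scaled by gene length and library size. The 5 sebaceous gland markers summed to 332, 334 and 329 TPM in DST-MNs wounds, against 2.85, 0.76 and 3.79 TPM in control wounds. The 5 measured keratinocyte markers summed to 3750, 207 and 1146 TPM in DST-MNs wounds and 171, 11.8 and 143 TPM in control wounds. Skeletal muscle markers summed to 2974, 3400 and 2378 TPM in DST-MNs wounds and 3678, 0.41 and 142 TPM in control wounds, so control replicate 1 stood apart from the other controls and near the treated wounds. The 10 macrophage markers summed to 3543 to 6159 TPM in DST-MNs wounds and 3226 to 4467 TPM in control wounds, of which Lyz2, with decimals in all its counts, gave 2727 to 5075 TPM in DST-MNs wounds and 2349 to 3318 TPM in control wounds. The log2 ratio of the group means of these sums was 0.35 in TPM and 0.039 in CPM, and Cd163 alone passed the test, as lower. In whole tissue, fewer cells of a type and less RNA per cell cannot be told apart.

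Together the 33 genes took 3888, 4419 and 4327 TPM in DST-MNs wounds, against 5352, 3785 and 3747 TPM in control wounds. The highest and the lowest of these sums were both control libraries, so the groups overlapped. Complement transcripts thus made up 0.375% to 0.535% of the TPM of a library. Levels differed by role. The 10 genes with a mean of at least 200 TPM over the 6 libraries were all 8 classical pathway genes, the amplifying protease Cfd and the C1 inhibitor Serping1. A further 14 genes lay from 10 to under 200 TPM and 6 from 1 to under 10 TPM, while C4bpa, C5 and C9 lay under 1 TPM.

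**Figure D1:**
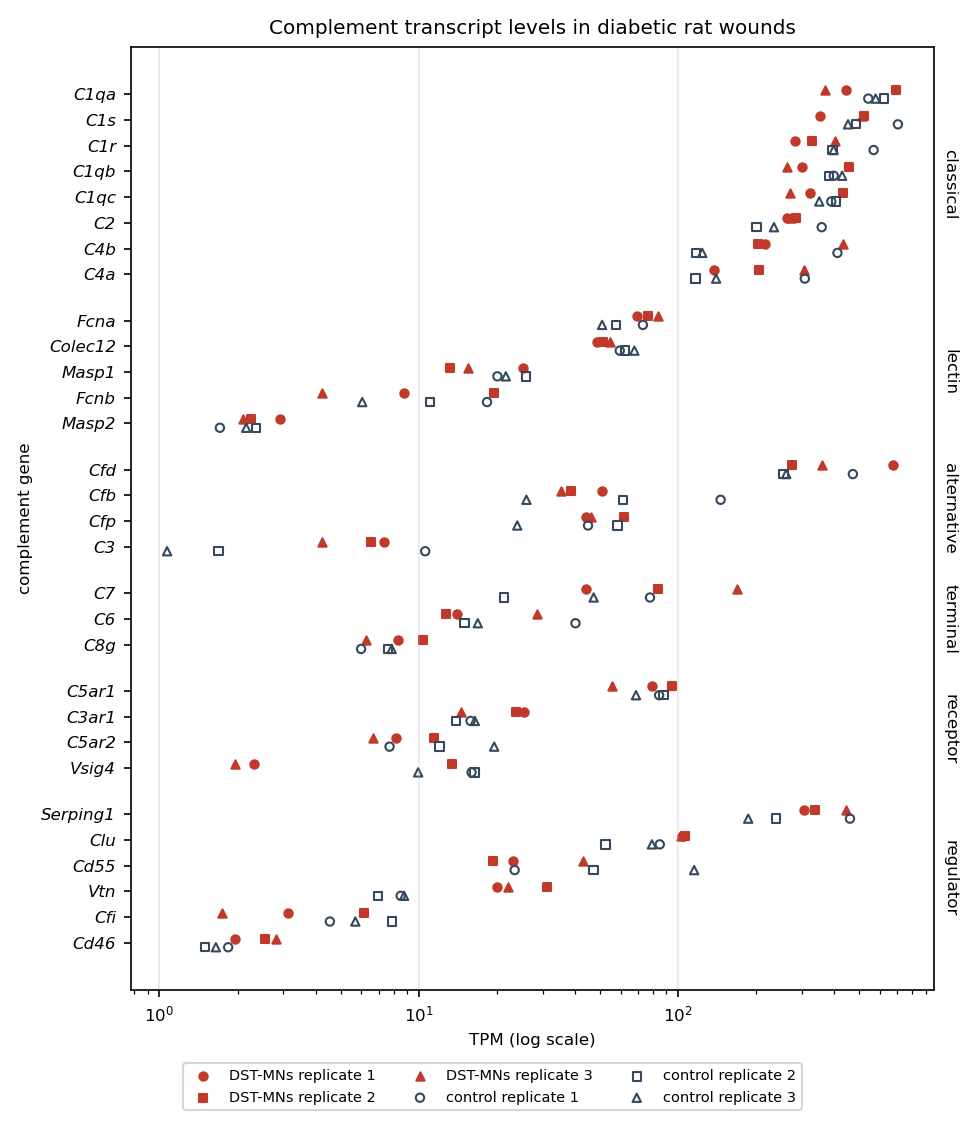
Level of the 30 complement genes that passed the count filter, in TPM on a log axis, with 1 point per library, grouped by role. Filled points are DST-MNs wounds and open points control wounds. The classical genes sit between 117 and 703 TPM, and C3 sits between 1.07 and 10.6 TPM. Vtn, Colec12, Clu and Cd46 show groups that do not overlap in TPM, which was not counted over all genes. In CPM the groups of Clu and Cd46 overlap.

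Vitronectin, Vtn, was the member called, as higher in the treated wounds, with an edgeR adjusted p of 0.0499. It kept this call in 1 of the 6 fits that left out a library, as given below. Of 33 members with a row, 30 had enough counts to be tested, and 1 of them was called, a share of 3.33%, beside 0.776% of all genes tested, or 0.658% when higher genes alone are counted. At an unadjusted p below 0.05 there were 2 members, Vtn as higher and the lectin Colec12 as lower, a share of 6.67% where all genes gave 16.7% (9.8% higher and 6.88% lower). The groups did not overlap in CPM, the counts scaled by library size with TMM factors, for the same 2 members, 6.67% of them, where all genes gave 22.9% (12.9% higher and 10% lower). DESeq2 called the same pair, where it called 7.1% of all genes (4.36% higher and 2.73% lower). The members' log2 changes had a median of -0.16, with 14 above and 16 below 0, and all tested genes had a median of 0.0044 with 49.5% below 0. The median size of a change, in either direction, was 0.37 on the log2 scale for the members and 0.23 for all genes, and the ratio of the highest to the lowest library had a median of 2.24 for the members and 1.7 for all genes. The members thus had a larger median spread between libraries than all genes, and a smaller share of them separated the groups in CPM. The share of all genes that did so in TPM was not counted.

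**Figure D2:**
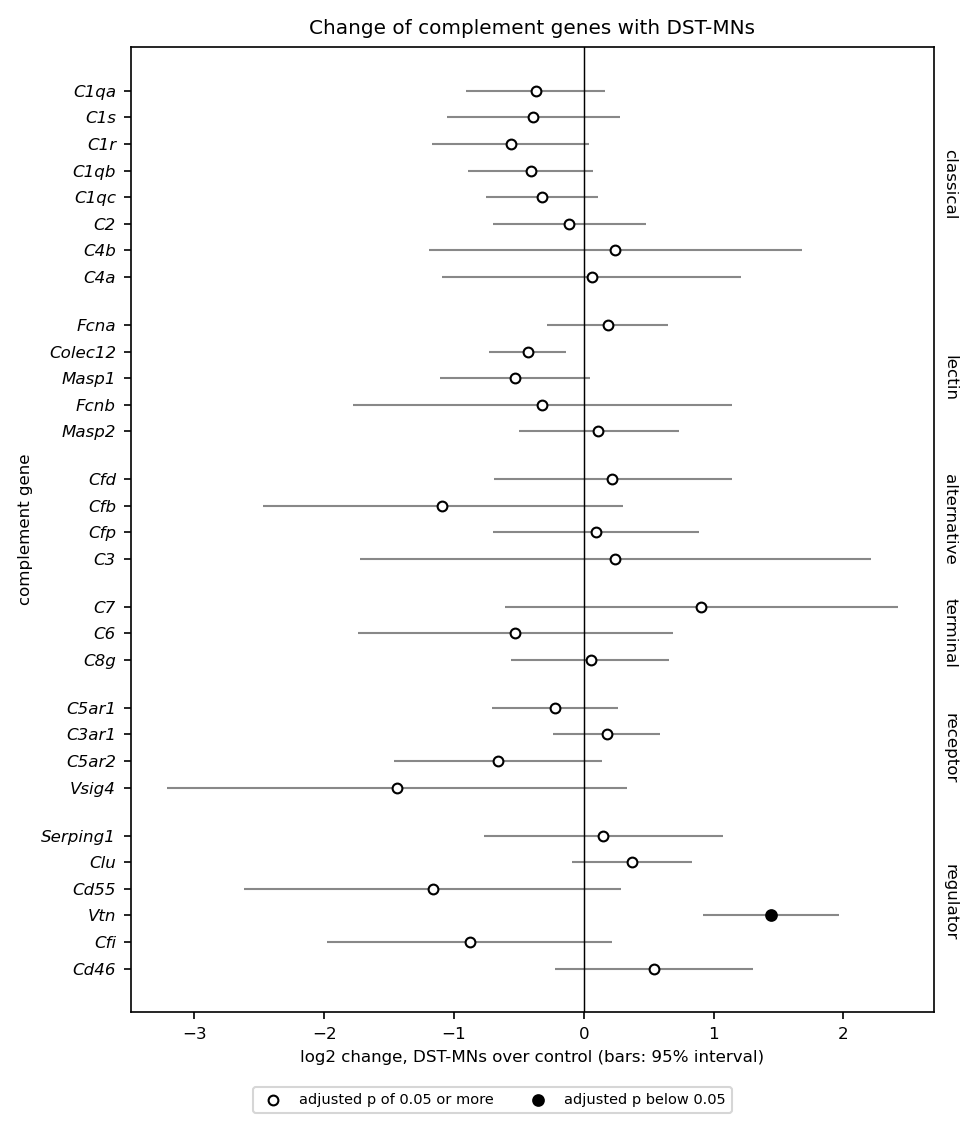
Log2 change of the 30 tested complement genes, DST-MNs over control, with the 95% interval as a bar, grouped by role. A filled point marks an adjusted p below 0.05. Vtn, at 1.44, is the filled point, and the intervals of all genes shown but Vtn and Colec12 include 0.

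The recognition molecule of the classical pathway, C1q, is built from 3 chains, each with its own gene, and the genes lie beside each other in the RefSeq gene order. C1qa was the highest complement gene, at 442, 693 and 368 TPM in DST-MNs wounds, against 541, 623 and 577 TPM in control wounds. C1qb stood at 300, 454 and 262 TPM in DST-MNs wounds and 398, 381 and 429 TPM in control wounds. C1qc stood at 323, 434 and 270 TPM in DST-MNs wounds and 389, 406 and 350 TPM in control wounds. For each chain's TPM, DST-MNs replicates 1 and 3 lay below all controls and DST-MNs replicate 2 above all of them, so the groups overlapped. The log2 changes were -0.37 (SE 0.23), -0.41 (SE 0.20) and -0.32 (SE 0.18) for C1qa, C1qb and C1qc, with edgeR adjusted p of 0.452, 0.365 and 0.421. The 95% interval for C1qa ran from -0.91 to 0.16. Without DST-MNs replicate 2 the changes were -0.65, -0.65 and -0.50, with edgeR adjusted p of 0.119, 0.0997 and 0.211, and without DST-MNs replicate 3 they were -0.24, -0.30 and -0.22.

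The 3 chains kept similar proportions over the 6 libraries. The TPM of C1qa over that of C1qb was 1.48, 1.53 and 1.41 in DST-MNs wounds and 1.36, 1.64 and 1.35 in control wounds. Over C1qc it was 1.37, 1.60 and 1.36 in DST-MNs wounds and 1.39, 1.53 and 1.65 in control wounds. These ratios varied by 7.62% and 8.52% over the 6 libraries (coefficient of variation). C1qb over C1qc, at 0.929 to 1.23, varied by 10.8%. The summed C1q level ran from 900 to 1581 TPM over all libraries, but from 1328 to 1409 TPM among controls. There the chains did not move together, since control replicate 3 was the highest control for C1qb and the lowest for C1qc. The scavenger receptor Cd163, a macrophage gene, fell in the same treated wounds, to 22.8, 25.9 and 18.4 TPM, against 77.8, 60.2 and 69.5 TPM in control wounds (log2 change -1.75, SE 0.16, edgeR adjusted p = 0.0115). Of the 10 macrophage markers 5 had positive and 5 negative changes, with a median of 0.034, and their part in the C1q levels was not tested.

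C1r and C1s encode the proteases that C1q carries, and the genes are neighbours in the RefSeq gene order. C1s stood at 352, 520 and 513 TPM in DST-MNs wounds and 703, 485 and 452 TPM in control wounds. C1r stood at 282, 329 and 402 TPM in DST-MNs wounds and 567, 394 and 397 TPM in control wounds. Control replicate 1 was the highest library for both, and the groups overlapped. The log2 change of C1r was -0.56 (SE 0.25, edgeR adjusted p = 0.327) and that of C1s -0.39 (SE 0.28, edgeR adjusted p = 0.527). C2, which supplies the protease of the convertase, stood at 263, 284 and 272 TPM in DST-MNs wounds and 358, 201 and 234 TPM in control wounds. Its treated libraries lay within the range of its controls, with a log2 change of -0.11 (SE 0.25), positive under scaling to total counts (0.0046) and in the TPM (0.091). Of 7 fibroblast markers 6 had negative changes and 0 were called, where 0.776% of all genes were called. The groups did not overlap in CPM for 1 of them, Pdgfra (14.3%), where all genes gave 22.9%. Fibroblast markers summed to 19390 to 25309 TPM in DST-MNs wounds and 21913 to 29556 TPM in control wounds, and their part in these values was not tested.

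C4, the first substrate of C1s, is encoded by 2 similar genes in the rat, C4a and C4b. Their upstream sequences show how close the copies are. RefSeq's windows of 250 bases before the start of each gene, on build GRCr8, aligned with 226 identical bases over 255 columns (88.6%). Both are on the plus strand, C4a at chr20:4010107-4010356 and C4b at chr20:4201729-4201978, and are written 5′ to 3′. Capitals mark the E-box CACGTG in both, 90 bases before the start in C4a and 95 in C4b, and the letters GAGGAA, 229 bases before the start in C4b.
C4a: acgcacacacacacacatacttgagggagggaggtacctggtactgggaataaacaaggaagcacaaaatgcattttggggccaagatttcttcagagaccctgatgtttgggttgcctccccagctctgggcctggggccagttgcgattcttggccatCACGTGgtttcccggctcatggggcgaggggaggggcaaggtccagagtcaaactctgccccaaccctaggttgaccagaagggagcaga
C4b: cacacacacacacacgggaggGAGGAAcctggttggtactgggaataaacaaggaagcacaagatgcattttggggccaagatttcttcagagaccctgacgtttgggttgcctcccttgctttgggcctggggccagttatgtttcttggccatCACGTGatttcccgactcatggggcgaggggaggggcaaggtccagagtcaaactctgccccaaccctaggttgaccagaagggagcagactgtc
Of the 22 members with a window, these 2 held CACGTG, which 5.79% of all 27457 windows hold on either strand. A match is a run of letters and not a measured site.

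Reads of the C4 genes were divided between them. The estimated counts of both had decimals in all 6 libraries, and their sum was whole in all 6, within 0.01. C4a stood at 137, 205 and 306 TPM in DST-MNs wounds and 308, 117 and 140 TPM in control wounds. C4b stood at 217, 203 and 430.8 TPM in DST-MNs wounds and 411, 117 and 124 TPM in control wounds. The level of each copy alone is therefore uncertain. Summed before the fit, a choice made after seeing the data, C4 had 18031, 20361 and 37330 counts in DST-MNs wounds and 39579, 12436 and 13338 counts in control wounds. DST-MNs replicate 3 and control replicate 1 were the high libraries, nearly level with each other, and the groups overlapped. The log2 change of the sum was 0.16 (SE 0.54, edgeR adjusted p = 0.904).

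**Figure D3:**
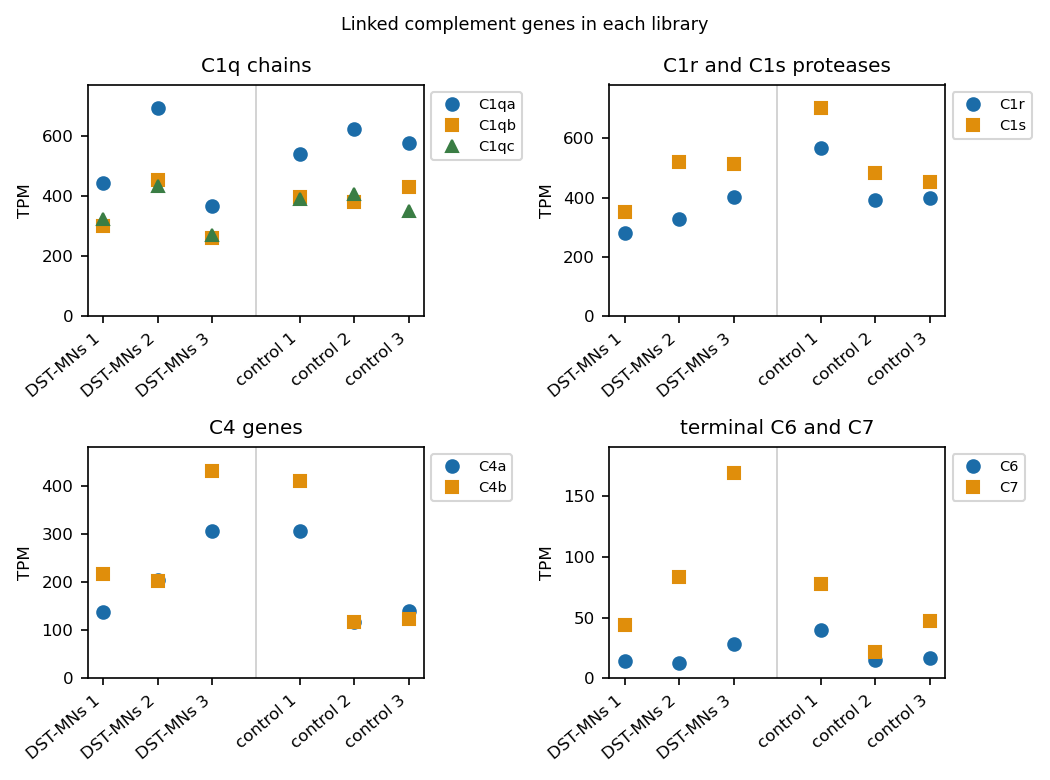
Levels in TPM of linked complement genes in each library, DST-MNs to the left of the grey line and control to the right, with 1 marker per gene. The C1q chains, at 262 to 693 TPM, are all highest in DST-MNs replicate 2 and lowest in DST-MNs replicate 3, while their order among controls differs. C4a and C4b are highest in DST-MNs replicate 3 and control replicate 1, and C7 is highest in DST-MNs replicate 3, at 169 TPM.

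Genes of the lectin pathway were lower in level than those of the classical pathway, with sums of 155, 163 and 161 TPM in DST-MNs wounds and 173, 159 and 149 TPM in control wounds. These TPM sums overlapped, while the CPM sums, at 214, 201 and 229 in DST-MNs wounds and 274, 273 and 252 in control wounds, did not. Colec12 was the largest part of the CPM sums, at 87.6, 96.3 and 112 in DST-MNs wounds and 130, 132 and 137 in control wounds. The groups overlapped in CPM for each of the other lectin genes. Fcna, ficolin A, a lectin of macrophages in rodents, was the highest lectin gene in mean TPM. It stood at 69.4, 76.5 and 83.9 TPM in DST-MNs wounds and 73.1, 57.7 and 50.9 TPM in control wounds (log2 change 0.19, SE 0.20). Colec12, a membrane collectin that also acts as a scavenger receptor, stood at 48.8, 51.3 and 54.8 TPM in DST-MNs wounds and 59.5, 62.2 and 67.8 TPM in control wounds. All 3 treated libraries lay below all 3 controls. Its log2 change was -0.43 (SE 0.12), with an unadjusted p of 0.011 and an edgeR adjusted p of 0.173, so the call was not made, while DESeq2 gave an adjusted p of 0.0251. Pdgfra, a growth factor receptor of fibroblasts, was the 1 of 7 fibroblast markers whose groups did not overlap in CPM. That share was 14.3%, where all genes gave 22.9%. The other fibroblast markers overlapped in CPM, with log2 changes from -0.57 for Dcn to 0.36 for Dpt. Pdgfra stood at 56.4, 68.4 and 57.3 TPM in DST-MNs wounds and 92.4, 94.5 and 92.9 TPM in control wounds, and its part was not tested.

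The proteases of the lectin pathway were scarce. Masp1 stood at 25.3, 13.2 and 15.5 TPM in DST-MNs wounds and 20.1, 25.9 and 21.7 TPM in control wounds (log2 change -0.53, SE 0.24, edgeR adjusted p = 0.337). Masp2, the protease that cuts C4 in this pathway, lay between 1.71 and 2.92 TPM in all libraries. Fcnb, ficolin B, which is a granule protein of myeloid cells, stood at 8.80, 19.4 and 4.25 TPM in DST-MNs wounds and 18.3, 11.1 and 6.05 TPM in control wounds (log2 change -0.32, SE 0.61). The 8 neutrophil markers, of which 0 of 6 tested passed, summed to 1642, 3911 and 1303 TPM in DST-MNs wounds and 2903, 3435 and 1323 TPM in control wounds. In TPM both were highest in replicate 2 among treated wounds, while among controls Fcnb was highest in replicate 1 and the markers in replicate 2. The CPM sums of the markers, at 650, 645 and 351 in control wounds, were highest in control replicate 1, as Fcnb was. The part of neutrophils was not tested.

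C3, the centre of the cascade, was counted at a low level. Whether that level is the wounds' own or is set by the gene models used for counting was not tested. It had 353, 308 and 202 estimated counts in DST-MNs wounds, against 550, 85 and 51 counts in control wounds, which are 7.35, 6.54 and 4.22 TPM in DST-MNs wounds and 10.6, 1.69 and 1.07 TPM in control wounds. Control replicate 1 was above all treated libraries and the other controls were below all of them, and the ratio of the highest to the lowest library was 9.89, the largest among the 30 tested members. The log2 change was 0.24 (SE 0.82, edgeR adjusted p = 0.907), with a 95% interval from -1.72 to 2.21. Without control replicate 1 it was 1.98 with an adjusted p of 0.0452, and without control replicate 2 or 3 it was -0.15 or -0.23. The sign of the change in C3 thus differed with the control library left out.

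The other genes of the alternative pathway were more abundant than C3. Cfd, or adipsin, the protease that cuts factor B and a product of fat cells, stood at 674, 274 and 360 TPM in DST-MNs wounds and 471, 255 and 261 TPM in control wounds. DST-MNs replicate 1 and control replicate 1 were its high libraries (log2 change 0.22, SE 0.38, edgeR adjusted p = 0.807). Adipoq, a marker of fat cells, was also highest in DST-MNs replicate 1, at 131 TPM against 7.41 and 18 TPM in the other treated libraries, and highest among controls in control replicate 1, at 35.9 TPM against 8.55 and 20.7 TPM. The 8 adipocyte markers as a list, of which 0 of 7 tested passed, gave sums made mostly of Fabp4. These were 2290, 2551 and 2749 TPM in DST-MNs wounds and 2125, 2497 and 1942 TPM in control wounds. The sum was thus lowest among treated wounds in DST-MNs replicate 1, where Cfd and Adipoq were highest. Plin1, Plin4, Lep, Cidec and Pck1 were also highest among treated wounds in that library, while Fabp4 and Lipe were not. Among controls the sum was highest in control replicate 2. Plin1, Plin4, Cidec and Pck1 were highest among controls in control replicate 1, while Lep, Fabp4 and Lipe were not. The part of fat cells in the level of Cfd was not tested. Cfb, factor B, stood at 50.8, 38.6 and 35.4 TPM in DST-MNs wounds and 146, 61.2 and 25.99 TPM in control wounds. Its log2 change was -1.09 (SE 0.58, edgeR adjusted p = 0.4), or -0.22 without control replicate 1. Cfp, properdin, which stabilises the convertase, lay between 44.3 and 61.6 TPM in DST-MNs wounds and 24.0 and 58.3 TPM in control wounds.

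Transcripts of C5, which starts the terminal pathway, and of C9, which forms its pore, were near 0. C5 had 4, 2 and 6 counts in DST-MNs wounds and 1, 3 and 2 counts in control wounds, and C9 had 1, 0 and 4 counts in DST-MNs wounds and no count in control wounds, so neither could be tested at this depth. Of the 5 measured hepatocyte markers, Alb lay between 0 and 2.97 TPM, Ttr between 0 and 0.22 TPM, Apoa1 between 0.82 and 2.3 TPM and Serpina1 between 0 and 10.95 TPM over all libraries. Tf, the exception, stood at 79.2 to 95.8 TPM in DST-MNs wounds and 88.0 to 105 TPM in control wounds. C7 was the abundant terminal gene, at 44.2, 83.3 and 169 TPM in DST-MNs wounds and 77.8, 21.3 and 47.2 TPM in control wounds. DST-MNs replicate 3 was high, and the groups overlapped (log2 change 0.90, SE 0.64, edgeR adjusted p = 0.521). Leaving out DST-MNs replicate 3 gave 0.18 for this change, while leaving out control replicate 1 gave 1.46 and control replicate 2 gave 0.54. C6 stood at 14.0, 12.8 and 28.6 TPM in DST-MNs wounds and 40.2, 15.0 and 16.9 TPM in control wounds (log2 change -0.53, SE 0.51). The TPM of C7 over that of C6 was 3.15, 6.52 and 5.90 in DST-MNs wounds, against 1.94, 1.42 and 2.8 in control wounds, a ratio chosen after its values were seen and given without a test. C8g, which encodes the gamma chain of C8, lay between 5.99 and 10.4 TPM in all libraries.

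Of the receptors, C5ar1, the main receptor of the anaphylatoxin C5a on neutrophils and macrophages, was the highest, at 79.5, 95.02 and 55.7 TPM in DST-MNs wounds and 84.4, 87.9 and 68.8 TPM in control wounds (log2 change -0.22, SE 0.20, edgeR adjusted p = 0.615). C5ar2, the other C5a receptor, stood at 8.18, 11.4 and 6.64 TPM in DST-MNs wounds and 7.71, 12.0 and 19.5 TPM in control wounds. C3ar1, the C3a receptor, stood at 25.4, 23.6 and 14.5 TPM in DST-MNs wounds and 15.8, 14.0 and 16.4 TPM in control wounds, and its counts had decimals in all 6 libraries, so its level is uncertain where reads were split. Vsig4, a receptor of tissue macrophages for fragments of C3, had 26, 147 and 22 counts in DST-MNs wounds and 195, 194 and 112 counts in control wounds. In the treated group, replicates 1 and 3 were low and replicate 2 lay within the range of the controls. Its log2 change was -1.44 (SE 0.74, edgeR adjusted p = 0.382), the most negative among the tested members, and ran from -2.86 (edgeR adjusted p = 0.0644) without DST-MNs replicate 2 to -1.05 (edgeR adjusted p = 0.58) without DST-MNs replicate 3.

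Among the regulators, Vtn passed the test. Its protein, vitronectin, binds the forming membrane attack complex and keeps it out of membranes, and it is also an adhesive matrix protein bound by integrins. Vtn had 262, 399 and 290 counts in DST-MNs wounds and 121, 96 and 115 counts in control wounds. In TPM these were 20.0, 31.1 and 22.1 in DST-MNs wounds, against 8.51, 6.96 and 8.77 in control wounds. The lowest treated library was above the highest control. The log2 change was 1.44 (SE 0.22, edgeR adjusted p = 0.0499), a 2.72-fold higher level, higher in 3 of 3 treated libraries, with a 95% interval from 0.92 to 1.97. The adjusted p lay at the threshold. It was 5.59e-06 with DESeq2, 0.073 with limma-voom and 0.0532 with no count filter, and it stayed below 0.05 in 1 of the 6 fits that left out a library, the one without control replicate 1 (0.0491), with 0.0771 to 0.2 in the others. The change itself ran from 1.26 to 1.59 over those fits. The sums of the sebaceous markers and of the keratinocyte markers both separated the same groups. Of the sebaceous markers 4 of 5 (80%) were called as higher, and of the keratinocyte markers 0 of 5, where all genes gave 0.658%. Among treated wounds the keratinocyte sum was lowest in DST-MNs replicate 2, where Vtn was highest. Of the hepatocyte markers, with Fgb and Ahsg not analysed here, Alb had 51, 1 and 4 counts in DST-MNs wounds and 1, 1 and 0 counts in control wounds, and Serpina1 had 134, 7 and 2 counts in DST-MNs wounds and 1, 0 and 1 counts in control wounds, too few to test. The part of these tissues in the level of Vtn was not tested.

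RefSeq's window of 250 bases before the start of Vtn, at chr10:63892532-63892781 on the plus strand of build GRCr8, is shown because Vtn was the called member. Capitals mark a match to TTCNNNGAA, the general form of sites bound by STAT factors, 115 bases before the start.
Vtn: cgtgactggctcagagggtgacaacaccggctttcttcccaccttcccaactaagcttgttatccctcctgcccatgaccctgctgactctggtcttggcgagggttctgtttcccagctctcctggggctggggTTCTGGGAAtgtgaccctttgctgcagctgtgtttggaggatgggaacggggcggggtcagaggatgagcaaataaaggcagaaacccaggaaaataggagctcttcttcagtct
This motif, read on both strands, was in 4 of the 22 members with a window, which were C1qa, C5ar2, Vsig4 and Vtn, and in 7.52% of all windows. The other motifs searched on both strands were TATAAA, in 1 of the 22 and 13.1% of all windows, and GAGGAA, in 7 of the 22 and 23.2% of all windows. None of these matches overlapped in the 3 windows shown.

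**Figure D4:**
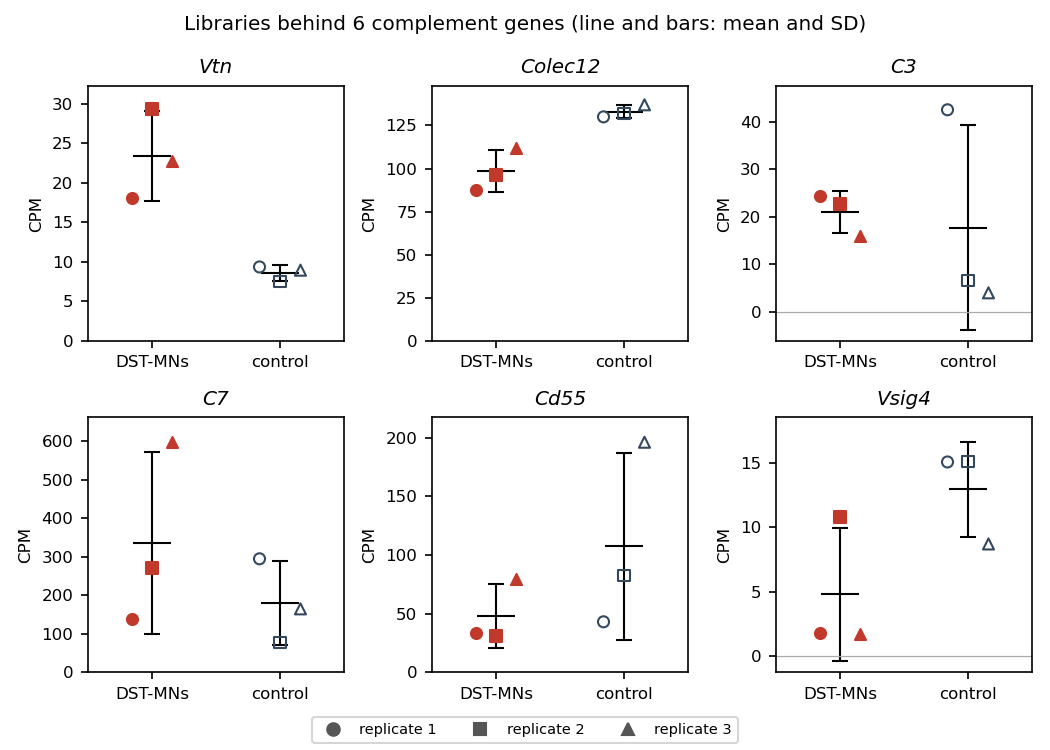
CPM of 6 complement genes by library, with the mean and SD of each group (n = 3 each), DST-MNs left of control. Vtn and Colec12 show groups that do not overlap. C3 and Vsig4 each hold 1 library far from the rest of its group, control replicate 1 for C3 and DST-MNs replicate 2 for Vsig4. C7 and Cd55 spread widely in both groups. C7 runs from 138 to 598 CPM in DST-MNs wounds and from 78.3 to 295 CPM in control wounds. Cd55 runs from 31.0 to 79.4 CPM in DST-MNs wounds and from 43.1 to 196 CPM in control wounds.

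The inhibitor of C1r, C1s and the MASPs, Serping1, was the highest regulator, at 306, 337 and 442 TPM in DST-MNs wounds and 460, 238 and 186 TPM in control wounds (log2 change 0.15, SE 0.39, edgeR adjusted p = 0.878). Control replicate 1 was again the highest library. Clu, clusterin, which like vitronectin blocks the membrane attack complex, stood at 103, 106 and 102 TPM in DST-MNs wounds and 84.9, 52.4 and 79.2 TPM in control wounds. The groups did not overlap in TPM but did in CPM, where DST-MNs replicate 1 and control replicate 1 were level, and the log2 change was 0.37 (SE 0.19, edgeR adjusted p = 0.387). Cd55, decay-accelerating factor, which dissolves convertases on the cell surface, stood at 23.1, 19.3 and 43.0 TPM in DST-MNs wounds and 23.4, 47.1 and 115 TPM in control wounds. Its log2 change was -1.16 (SE 0.61, edgeR adjusted p = 0.389), or -0.40 without control replicate 3. Cfi, the protease that degrades C3b and C4b, had a log2 change of -0.88 (SE 0.46, edgeR adjusted p = 0.389), at 1.74 to 6.16 TPM in DST-MNs wounds and 4.54 to 7.89 TPM in control wounds. Cd46, a cofactor of factor I that rodents express mainly in testis, lay between 1.96 and 2.82 TPM in DST-MNs wounds and 1.5 and 1.84 TPM in control wounds. Its groups did not overlap in TPM but did in CPM (log2 change 0.54, SE 0.32, edgeR adjusted p = 0.442). C4bpa had 15, 0 and 8 counts in DST-MNs wounds and 12, 3 and 5 counts in control wounds, too few to test.

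One library carried the highest level of many members. Control replicate 1 was the highest library in CPM for 12 of the 30 tested members, which were C1r, C1s, C2, C4a, C4b, Fcnb, C3, Cfb, C6, C5ar1, Vsig4 and Serping1. For C5ar1 and Vsig4 it was level with control replicate 2, at 115 and 15.1 CPM. The other libraries were the highest for 2 to 5 members each. DST-MNs replicate 3 was the lowest library for 8 members, among them C1qa, C1qc and Vsig4. The highest library depended on the unit for some members. In TPM C4b was highest in DST-MNs replicate 3, Fcnb and C5ar1 in DST-MNs replicate 2 and Vsig4 in control replicate 2. Highest and lowest libraries were not counted over all tested genes. These counts therefore cannot tell a trait of the members from a trait of the library. Leaving out control replicate 1 moved the median log2 change of the members to 0.065, against -0.16 with all libraries.

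The wider complement list held 27 further genes, of which 24 had a row and 16 were tested. By edgeR 0 of them passed after adjustment. Without it 8 of the 16 (50%) lay below a p of 0.05, 2 higher and 6 lower, where all genes gave 16.7% (9.8% higher and 6.88% lower). DESeq2 called 5 of the 16, all lower, where it called 7.1% of all genes (2.73% lower). In CPM the groups did not overlap for 8 of the 16 (50%), where all genes gave 22.9%. The list was chosen with earlier results of these data known, so these shares describe the list and are not a test of complement genes. Cr1l, the rodent membrane inhibitor Crry, stood at 109, 102 and 93.1 TPM in DST-MNs wounds and 123, 129 and 131 TPM in control wounds (log2 change -0.49, SE 0.095, edgeR adjusted p = 0.0928). For Cr1l all treated libraries lay below all controls, and DESeq2 gave an adjusted p of 4.36e-06. Ctsl, cathepsin L, a lysosomal protease that cuts C3 inside human T cells, stood at 1173, 1088 and 1313 TPM in DST-MNs wounds and 2016, 1794 and 1888 TPM in control wounds (log2 change -0.82, SE 0.17, edgeR adjusted p = 0.11). Cd93, an endothelial receptor once described as a C1q receptor, stood at 50.1, 71.4 and 41.0 TPM in DST-MNs wounds and 62.5, 87.2 and 93.96 TPM in control wounds (log2 change -0.73, SE 0.23, edgeR adjusted p = 0.2). The chaperone Calr, which binds C1q on dying cells, stood at 672, 517 and 679.5 TPM in DST-MNs wounds and 706, 952 and 902 TPM in control wounds (log2 change -0.60, SE 0.19, edgeR adjusted p = 0.208). The 5 endothelial markers had negative changes throughout, with 0 called, and summed to 244 to 348 TPM in DST-MNs wounds and 309 to 391 TPM in control wounds. Their CPM sums did not overlap, at 740, 952 and 730 in DST-MNs wounds and 996, 1140 and 1160 in control wounds, nor did the CPM of Pecam1 and Vwf, 2 of the 5 (40%). Their part in Cd93 was not tested. Csmd1, a membrane inhibitor of complement, had 15, 26 and 27 counts in DST-MNs wounds and 5, 1 and 7 counts in control wounds (log2 change 2.29, SE 0.62, edgeR adjusted p = 0.161).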

How the data were processed

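The table deposited by the authors holds 4 kinds of value for each of 6 libraries, handled against build mRatBN7.2, as the submitters' processing notes name it. The sources used here give no aligner or counter. Per the file headers these are estimated counts, FPKM, TPM and normalised counts, the last a deposited signal whose ratio to the counts was near constant within each library. FPKM and the normalised signal were not used. Columns were matched to samples by library name.

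Expected counts were rounded. Genes kept by filterByExpr of edgeR 4.0.16 (minimum count 10) got TMM factors and entered its quasi-likelihood test in R 4.3.3, Benjamini-Hochberg adjusted over all 14427 genes. Standard errors are the log2 change over the square root of F. TPM gave levels only. Alternatives were DESeq2 1.42.0 (also its size factors), upper-quartile and total scaling, other filters, voom and a TPM trend test (pseudocount 1, mean TPM of at least 1) of limma 3.58.1, a replicate block and each library left out. The fit was tested on simulated data. Promoter windows came from RefSeq (GRCr8), matched by gene ID, and were aligned with Biopython 1.88. Members, lists and motifs were chosen with earlier results of these data known. Members past an unadjusted p of 0.05, the highest of each role, C3, Cfd and C1qa were set to be given by library; other members were added after their values were seen. Up to 6 genes of the wider list, those of smallest unadjusted p below 0.05, were to be named. A gene of the wider complement list that this rule names is not reported here.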

Additional observations from a re-analysis of the deposited data

How the results depend on the processing

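The count of changed genes over the whole table, 112, was 1018 with DESeq2, 38 with at least 10 counts in every library, and 14 to 402 with 1 library left out (402 without control replicate 1, 23, 34 and 14 without DST-MNs replicates 1, 2 and 3, and 34 and 53 without control replicates 2 and 3). The count of complement members, 1, was 2 with DESeq2, 0 with no count filter, 0 with at least 10 counts in every library, 0 with limma-voom, and 0 to 2 with 1 library left out. With the replicate number as a block it was 0, and Vtn had an adjusted p of 0.0966. The wider list, with 0 calls, had 5 with DESeq2 and 1, Ptx3 (log2 change -1.92, adjusted p = 0.0285), with the replicate block. Whether the numbers pair the libraries cannot be settled with 3 libraries per group. The deviations of same-numbered libraries correlated at -0.025, 0.10 and 0.11. DST-MNs replicates 2 and 3 correlated best with their own number, and DST-MNs replicate 1 with control replicate 3 (0.10). C2 changed sign with total counts (0.0046) and in the TPM test (0.091). With 1 library left out, signs changed for C2 (-0.27 to 0.21), C3 (-0.23 to 1.98), C4a (-0.35 to 0.66), C4b (-0.27 to 1.14), Masp2 (-0.00093 to 0.19), Fcnb (-1.03 to 0.17), Cfd (-0.17 to 0.60), Cfp (-0.21 to 0.39), C6 (-1.05 to 0.11), C8g (-0.12 to 0.17) and Serping1 (-0.12 to 0.65). The cause was not tested. Total-count scaling and TPM each moved the median of all genes from 0.0044 to 0.12, with members' medians of -0.052 and -0.00012, and with no count filter the members' median was 0.038. In CPM in place of TPM, the log2 ratio of the lectin sums was -0.31 in place of -0.0063, and that of the hepatocyte markers -0.26 in place of -0.074. Calls of single members moved for Vtn, Colec12 and C3, as given above. Depth limited C5, C9 and C4bpa, which were not tested.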

Other observations

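The leukocyte integrins that bind fragments of C3 on coated particles, complement receptors 3 and 4, were measured through 3 chains. Their shared beta chain Itgb2 stood at 162, 95.4 and 77.1 TPM in DST-MNs wounds and 68.3, 53.4 and 44.8 TPM in control wounds, and the groups did not overlap. Its log2 change was 0.83 (SE 0.29), with an unadjusted p of 0.0237 and an edgeR adjusted p of 0.226, so it was not called. The alpha chain Itgam stood at 69.1, 23.8 and 22.8 TPM in DST-MNs wounds and 26.8, 15.0 and 17.9 TPM in control wounds, and Itgax at 25.1, 25.6 and 13.0 TPM in DST-MNs wounds and 13.3, 15.5 and 13.6 TPM in control wounds. Both overlapped between the groups (log2 changes 0.73 and 0.45, edgeR adjusted p of 0.446 and 0.338). Ptx3, pentraxin 3, a soluble pattern receptor that binds C1q, stood at 14.6, 48.6 and 11.0 TPM in DST-MNs wounds and 53.3, 141 and 41.5 TPM in control wounds (log2 change -1.84, SE 0.69, edgeR adjusted p = 0.261), with overlapping groups. Cd59, the membrane inhibitor of C9 insertion, stood at 188, 195 and 153 TPM in DST-MNs wounds and 176, 129 and 137 TPM in control wounds (log2 change 0.12, SE 0.17, edgeR adjusted p = 0.751). These genes come from the wider complement list and were picked for description after their values were seen.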
